A study of Rattus norvegicus with 144 samples.

Results

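RNA from the dorsal striatum (STR) was compared with RNA from the prefrontal cortex (PFC) in saline-treated rats of the F344 strain (F344_Sal). The members were chosen by label, as the 12 saline libraries of the F344 STR and the 12 saline libraries of the F344 PFC, which are 24 of the 144 libraries of the series. The rats were adult males with prior behavioral testing, and F344 is the inbred background strain of the HIV-1 transgenic (HIV-1Tg) rat, which carries an HIV-1 provirus without working gag and pol genes in all of its cells. The F344_Sal rats received saline at 1 ml/kg by subcutaneous injection 2 times per day for 17 days. The same comparison was repeated in 12 STR and 12 PFC libraries of HIV-1Tg rats given the same saline (HIV_Sal), and the dorsal hippocampus (HIP) of the F344_Sal rats served as another region for description. Libraries of nicotine-treated rats of both strains, injected on the same schedule, entered the region medians, the gene links, and 1 fit of all 144 libraries. Each library is bulk RNA from tissue punches of 1 region of 1 brain. Per the study's methods, the regions were taken from the same 12 brains of a group, so STR and PFC libraries share animals, but the labels do not say which libraries belong together. The tests below treat the 24 libraries as separate, and "rat 10" names the library with that number in its label, not an animal known to be the same in each region.

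The STR is the main input station of the basal ganglia. Most of its neurons are GABAergic projection neurons that receive dopamine from the midbrain and glutamate from the cortex and thalamus. The PFC is built mainly of glutamatergic pyramidal neurons arranged in layers, with GABAergic interneurons between them. Both regions also hold oligodendrocytes, astrocytes, microglia, and vascular cells.

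The values are FPKM, the fragments scaled to transcript length and to the number of mapped fragments, for each Ensembl transcript in each rat. The tables list transcripts by Ensembl identifier, and no source used here pairs these identifiers with gene symbols. The 19 lists of region and cell type markers, receptors, and pathways written for this comparison therefore could not be applied, and the labelled region of a library could be checked only against the other libraries. A transcript was linked to a gene symbol in 7 cases, where 4 group means and 4 standard errors computed from its values all equalled the 8 numbers printed for that gene in the report of the study. The other transcripts are described by counts and levels, with 2 identifiers in each direction.

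Not every library resembled its labelled region. Over the 1000 genes that varied most between regions, Pearson's r across genes was computed between each of the 144 libraries and the median of all other libraries of each region, pooled over saline- and nicotine-treated rats of both strains. The other 46 STR libraries had r from 0.568 to 0.694 with the STR median and from 0.149 to 0.274 with the HIP median. The library labelled F344_Sal STR rat 10 had r of 0.373 with the STR median and 0.491 with the HIP median. In HIV_Sal, the library labelled STR rat 6 had r of 0.413 with STR and 0.525 with HIP. The HIP libraries with the same numbers went the other way. F344_Sal HIP rat 10 had r of 0.474 with STR and 0.409 with HIP, and HIV_Sal HIP rat 6 had r of 0.4403 with STR and 0.342 with HIP. These 4 were the only libraries of the 144 nearer to another region than to their own, and all 48 PFC libraries were nearest to the PFC. Results are given with all labelled libraries and, where it matters, without STR rat 10.

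**Figure D1:**
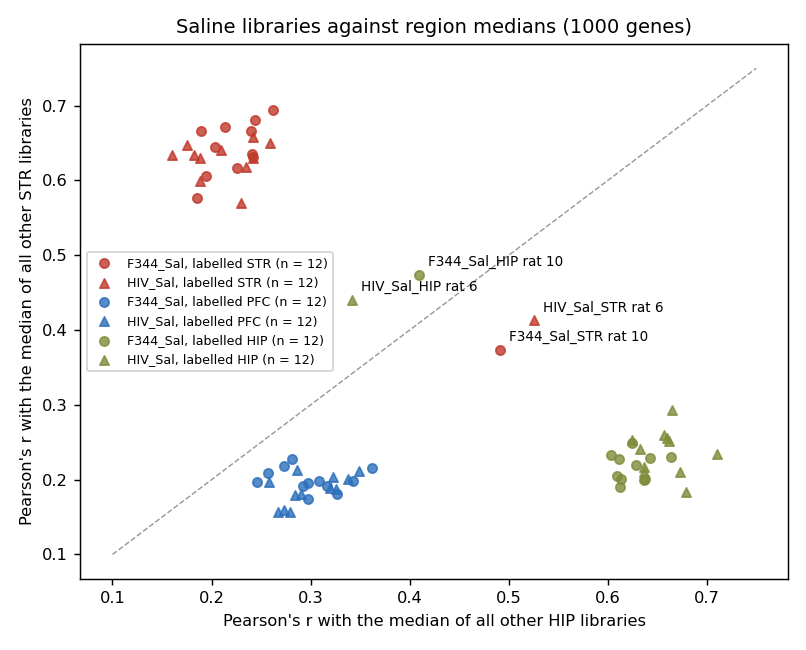
Each point is 1 of the 72 saline libraries, with its correlation across 1000 genes to the median HIP library on the x axis and to the median STR library on the y axis. The regions form 3 clouds, and F344_Sal STR rat 10 (0.491, 0.373), HIV_Sal STR rat 6, and the HIP libraries with the same numbers lie between the STR and HIP clouds.

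Relative depth and region moved together. The tables give no read numbers, but the ratio of base coverage to FPKM rises with the number of mapped fragments. In F344_Sal this ratio was 2.03 ± 0.17 in the STR and 2.57 ± 0.39 in the PFC (SD, n = 12 each, two-sided permutation test with 100000 resamples, p = 4e-05). FPKM was also summed over the transcripts of a library that matched the annotation exactly, without its other assembled transcripts. The sum was 220948 ± 10783 in the STR and 206262 ± 10500 in the PFC (p = 0.003, same permutation test). The parts of depth and region in the differences below cannot be told apart in these samples.

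The STR and PFC differed in 2326 of the 14447 transcripts tested, which is 16.1%. Of these, 1407 (9.74% of those tested) were higher in the STR and 919 (6.36%) were higher in the PFC, by limma on log2(FPKM + 0.1) with a Benjamini-Hochberg adjusted p under 0.05 and a fold over 1.2. The median difference over all transcripts tested, STR minus PFC, was 0.11 on the log2 scale, and 58.3% of them had a positive difference. When each library was first scaled to the same median, the balance between the directions turned, with 968 transcripts higher in the STR and 1328 higher in the PFC. With relative depth as a covariate, 536 and 525 transcripts were called, and with values close to 0 and outliers left out, 3093 and 1883. A statement that more transcripts were higher in the STR than in the PFC thus holds for FPKM as deposited and not after median scaling. In bulk tissue, a difference in the share of a cell type and a difference in RNA per cell cannot be told apart.

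Transcripts called in both directions spanned a wide range of sizes. The median fold was 1.80 among those higher in the STR and 1.89 among those higher in the PFC. A fold over 2 was seen for 558 of the 1407 STR-high transcripts (39.7%) and for 406 of the 919 PFC-high transcripts (44.2%). A fold over 8 was seen for 42 and 52 transcripts, respectively, and for 58 and 56 without STR rat 10. The largest folds on this scale were 50.7 for the STR and 72.4 for the PFC.

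Complete separation of the rats was less common than a call. All 12 STR values lay above all 12 PFC values for 88 transcripts, which is 0.609% of those tested, and below them for 126 transcripts, or 0.872%. Without STR rat 10, these numbers were 275 (1.94% of 14158 tested) and 241 (1.70%). Leaving out any library can only keep or create separation of a given transcript, so these rises alone do not set STR rat 10 apart. No other library was left out for this count.

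The library of STR rat 10 was then placed on a scale on which the PFC median is 0 and the median of the other 11 STR rats is 1, over transcripts that were called with a fold over 2 without it. Over the 686 such transcripts higher in the STR, its median position was -0.03, whereas the other 11 STR libraries lay between 0.85 and 1.02. The other 11 STR libraries chose these transcripts, together with the PFC, and set the scale, so their place near 1 is built in. STR rat 10 and the HIP libraries had no part in the choice. The HIP libraries of the other 11 rats lay between 0.05 and 0.25 on this scale, and the HIP library of rat 10 lay at 0.89. Over the 436 transcripts higher in the PFC, STR rat 10 lay at 0.45, the other STR libraries between 1.00 and 1.04, the other HIP libraries between 0.38 and 0.51, and HIP rat 10 at 0.94. The library labelled STR rat 10 therefore had STR-high transcripts near PFC levels and PFC-high transcripts at HIP levels. In HIV_Sal, STR rat 6 lay at 0.11 over 722 STR-high transcripts and at 0.48 over 462 PFC-high transcripts on the same kind of scale, and HIP rat 6 lay at 0.95 and 0.91.

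Leaving out STR rat 10 raised the calls to 1697 higher in the STR and 982 higher in the PFC, of 14158 tested. Of the 1407 STR-high transcripts called with all 24 libraries, 1374 were called again, and of the 919 PFC-high transcripts, 872 were called again. Of those not called again, 1 STR-high and 22 PFC-high transcripts did not pass the filter on low values without that library. The largest fold rose to 77.9 for STR-high and to 115 for PFC-high transcripts.

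The share of transcripts called rose with their level. Among the 3814 transcripts with a mean FPKM under 1, 7.32% were higher in the STR and 4.12% higher in the PFC. Among the 6588 transcripts from 1 to 10 FPKM, these shares were 9.32% and 5.16%. Among the 3764 transcripts from 10 to 100 FPKM, they were 12% and 10.1%, and among the 281 transcripts at 100 FPKM or more, 17.4% and 15.3%. The measurement itself was tighter at high levels. The median half-width of the interval that Cufflinks gave for a value in the STR was 89.4% of the value below 1 FPKM, 25.3% from 1 to 10, 9.84% from 10 to 100, and 4.58% at 100 or more. In the PFC these half-widths were 89.4%, 23.41%, 8.86%, and 4.11%. The median SD between rats did not follow the same steps, at 0.70, 0.80, 0.49, and 0.41 on the log2 scale in the STR.

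**Figure D2:**
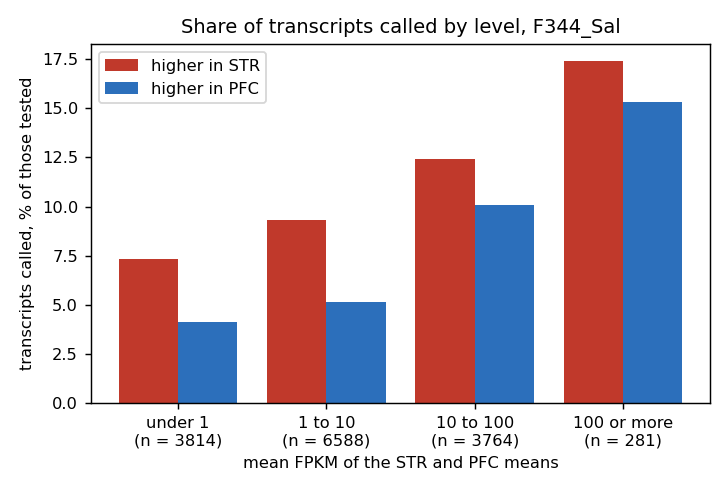
Bars give the percentage of tested transcripts called higher in the STR (red) or higher in the PFC (blue) in F344_Sal, for 4 classes of mean FPKM on the x axis. Both shares are lowest under 1 FPKM (7.32% and 4.12%) and highest at 100 FPKM or more (17.4% and 15.3%).

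Many transcripts were listed at or near 0 in some rats and well above it in others of the same group. All 24 libraries were above 0.01 FPKM, where a value was given, for 6753 of the transcripts tested, and 15.5% of these were higher in the STR and 10.4% in the PFC. Where 4 or more libraries were at 0.01 or less (4111 transcripts), 3.65% and 2.29% were called. With transcript length, the share of STR-high calls went from 13.2% under 700 bases to 7.02% at 5000 bases or more, while the share of PFC-high calls stayed between 5.70% and 6.75%. The median length was 1791 bases for STR-high and 2146 bases for PFC-high transcripts, beside 2023 bases for all tested.

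Transcripts that passed the limit of 0.01 FPKM in at least 6 rats of 1 region only were not tested. There were 1753 of these for the STR and 1530 for the PFC. Counting missing values as not above the limit, 35 transcripts were above it in all 12 STR rats and in 0 PFC rats, and 40 the other way around. Among those with a value in all 24 libraries, 2 were above the limit in all 12 STR rats and in 0 PFC rats, with median levels of 0.433 and 0.635 FPKM in the STR. Another 2 were above it in all 12 PFC rats and in 0 STR rats, with medians of 0.0463 and 1.73 FPKM in the PFC. In HIV_Sal, 1 of the 2 STR transcripts and 0 of the 2 PFC transcripts showed the same pattern in all rats.

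The HIP placed both sets of transcripts within a wider pattern, given here as a description from the 11 HIP rats without rat 10. Of the 686 STR-high transcripts with a fold over 2 without STR rat 10, the HIP median was below the PFC median for 234 (34.1%), between the regions and nearer to the PFC for 249 (36.3%), nearer to the STR for 148 (21.6%), above the STR for 52 (7.58%), and not given for 3. Of the 436 PFC-high transcripts, the HIP median was above the PFC for 106 (24.3%), nearer to the PFC for 126 (28.9%), nearer to the STR for 119 (27.3%), and below the STR for 85 (19.5%). Most STR-high transcripts were thus nearer to the PFC than to the STR in the HIP, whereas PFC-high transcripts were spread more evenly over the scale.

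Single transcripts were named by a rule that asked for a call in both strains, a mean of at least 1 FPKM in the higher region, no overlap of the 12 STR and 12 PFC libraries, and 1 transcript per gene. The rule was met by 77 transcripts higher in the STR and 103 higher in the PFC. The 10 with the largest difference in each direction had folds from 4.09 to 28.6 for the STR and from 8.25 to 32.2 for the PFC. The HIP median was also above the PFC median for 9 of the 10 STR-high transcripts. For the 10 PFC-high transcripts, it was above the PFC median for 0 and below the STR median for 3. Without STR rat 10 and HIV_Sal STR rat 6, the rule was met by 230 and 202 transcripts, the 10 largest STR-high folds ranged from 14.1 to 77.9, and the HIP median was above the PFC median for 3 of those 10. The 10 largest PFC-high folds then ranged from 17.5 to 115, and the HIP median was above the PFC median for 5 and below the STR median for 0 of them.

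ENSRNOT00000046059 had the largest difference toward the STR under the rule. Its FPKM in the STR was 7.37 at the lowest, 19.7 at the median, and 29.5 at the highest of 12 rats. In the PFC it was listed at 0 in 6 of 12 rats, and the highest value was 6.87. No PFC value reached the lowest STR value, and STR rat 10, at 17.8, was inside the range of the other STR rats. The log2 difference was 4.84 (SE 0.79, adjusted p = 8.81e-05 by limma), and it depended on the pseudocount, at 3.101 with 1 and 6.51 with 0.01. The means were 18.9 and 1.99 FPKM, a smaller ratio than the fitted fold of 28.6, because values of 0 weigh more on the log scale. The HIP was also high, with a median of 14.2 FPKM and a range of 4.47 to 16.3. In HIV_Sal rats the difference was 3.91 (SE 0.76, adjusted p = 0.000533 by limma). For each named identifier, the rule required a call in both strains, so passing adjusted p values were fixed by it.

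ENSRNOT00000016020 followed, at 6.03 FPKM in the lowest, 11.004 in the median, and 18.5 in the highest STR rat. The PFC rats ranged from 0.392 through a median of 0.678 to 2.41 FPKM. The groups did not overlap, and each PFC rat was above 0. The log2 difference was 3.53 (SE 0.27, adjusted p = 1.52e-09 by limma) in F344_Sal and 3.99 (SE 0.30) in HIV_Sal. The HIP median was 9.62 FPKM. That the HIP was near the STR for both STR-high transcripts is in part fixed by the rule, since STR rat 10, a library nearer to HIP, had to lie above all PFC rats.

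ENSRNOT00000049259 had the largest difference toward the PFC under the rule. It was at 2.34 FPKM in the lowest, 7.53 in the median, and 10.6 in the highest PFC rat. In the STR the median was 0.0730 FPKM, and 11 of 12 rats lay between 0.0312 and 0.238. STR rat 10 stood apart at 1.58 FPKM, within the range of 0.4095 to 3.04 FPKM seen in the other 11 HIP rats. HIP rat 10, at 0.0579 FPKM, was in turn within the range of the other STR rats. The log2 difference, STR minus PFC, was -5.01 (SE 0.34, adjusted p = 2.21e-10 by limma), and -5.28 (SE 0.23) without STR rat 10. In HIV_Sal it was -5.18 (SE 0.28).

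ENSRNOT00000022845 showed the same order of regions. Its FPKM was 5.61 to 10.5 in the PFC, with a median of 7.36. It was 0.108 to 0.4404 in 11 STR rats and 1.15 in STR rat 10. The other 11 HIP rats ranged from 1.67 to 3.63 FPKM, between both regions, and HIP rat 10 was at 0.346. The log2 difference was -4.51 (SE 0.24, adjusted p = 2.65e-12 by limma) in F344_Sal and -4.24 (SE 0.27) in HIV_Sal. Both PFC-high transcripts were thus lowest in the STR and intermediate in the HIP, and HIP levels below the PFC were favored by the rule, since STR rat 10 had to lie below all PFC rats.

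**Figure D3:**
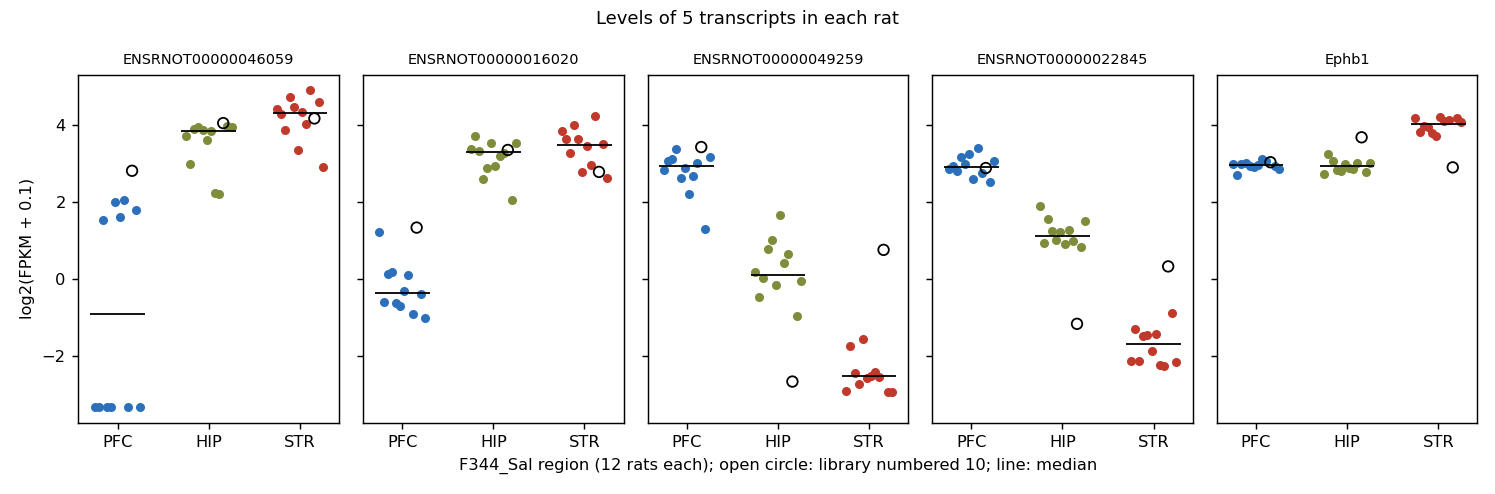
Each point is the level of a transcript in 1 F344_Sal rat, as log2(FPKM + 0.1), in the PFC, HIP, and STR, with a line at the median and an open circle for the library numbered 10 in each region. The STR and PFC points do not overlap for the 4 identifiers, and for Ephb1 the STR point of rat 10 lies among the PFC points.

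The 7 transcripts linked to gene symbols were chosen by the study for a difference between HIV_Sal and F344_Sal that nicotine also changed, in the PFC, HIP, or STR, and not for a difference between regions. For Ephb1, Axin1, Fgf9, Mdh1, and Rap1b the choice used saline libraries of the STR or PFC that are compared here. It took Ephb1 in both regions, Axin1 and Fgf9 in the PFC, and Rap1b in the STR as higher in F344_Sal than in HIV_Sal. Mdh1 was taken as lower in the STR of F344_Sal. Such a choice favors F344_Sal values on that side and HIV_Sal values on the other, which the adjusted p values below do not allow for. Of the 7 transcripts, 1 passed the test between regions, beside 16.1% of all transcripts tested. Ephb1, a receptor tyrosine kinase that binds ephrin-B ligands and guides axons and synapse formation, was higher in the STR. Its FPKM was 7.308 at the lowest, 16.03 at the median, and 18.3 at the highest of the 12 STR rats, and 6.32, 7.70, and 8.567 in the PFC. The lowest STR value was that of rat 10, and the other 11 STR rats, from 12.85 upward, lay above every PFC rat. The log2 difference was 0.96 (SE 0.12, adjusted p = 1.63e-06 by limma), and 1.05 (SE 0.07) without rat 10. The HIP was at PFC levels, with a median of 7.55 FPKM, and its highest value, 12.6, was that of rat 10.

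In HIV_Sal rats, Ephb1 ranged from 2.496 through a median of 9.43 to 16.3 FPKM in the STR and from 6.03 through 6.81 to 7.96 in the PFC. The STR rats overlapped the PFC rats on both sides, and the log2 difference was 0.22 (SE 0.28, adjusted p = 0.667 by limma). The region difference in HIV_Sal minus that in F344_Sal was -0.74. This value is a description with no test, since the study chose Ephb1 for a strain difference in these same STR and PFC libraries.

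The other 6 linked genes did not pass the test. Cflar, an inhibitor of caspase-8 activation at death receptors, had median levels of 2.14 FPKM in the STR and 1.44 in the PFC, with a log2 difference of 0.47 (SE 0.21, adjusted p = 0.141 by limma). Its ranges overlapped, at 0.734 to 2.828 in the STR and 0.922 to 2.32 in the PFC. Without STR rat 6 the difference was 0.59 and passed (adjusted p = 0.0238 by limma), as it did at 0.59 with values close to 0 and outliers left out (adjusted p = 0.00435 by limma). In HIV_Sal the difference had the other sign, at -0.16 (SE 0.25, adjusted p = 0.730 by limma). Plch1, a phospholipase C of the eta class, was at a median of 0.722 FPKM in the STR and 0.407 in the PFC, and was listed at 0 in 1 STR rat and 5 PFC rats. The STR rat listed at 0 was rat 10. The log2 difference was 1.27 (SE 0.57, adjusted p = 0.142 by limma) with all rats and 1.54 (SE 0.52, adjusted p = 0.0407 by limma) without rat 10. It was 0.08 (adjusted p = 0.861 by limma) with values close to 0 and outliers left out, 0.36 with relative depth as a covariate, 0.65 with FPKM summed per gene, 0.41 with a pseudocount of 1, and 2.34 with a pseudocount of 0.01. In HIV_Sal it was 0.70 (SE 0.59).

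Mdh1, the cytosolic malate dehydrogenase of the malate-aspartate shuttle, varied widely between rats of the STR. In the STR, 3 of 12 rats were above 100 FPKM, up to 352, and the median was 39.6. In the PFC, 0 of 12 rats were above 100 FPKM, and the median was 46.9. The medians and the means, 108 FPKM in the STR and 46.8 in the PFC, thus lay in opposite order. The log2 difference of 0.47 (SE 0.40, adjusted p = 0.486 by limma) turned to -0.30 (adjusted p = 0.0112 by limma) when values close to 0 and values beyond 1.5 interquartile ranges were left out. In HIV_Sal, 6 of 12 STR rats and 1 of 12 PFC rats were above 100 FPKM, and the difference was 0.84 (SE 0.49).

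Fgf9, a secreted fibroblast growth factor, had medians of 2.18 FPKM in the STR and 3.30 in the PFC and a log2 difference of -0.36 (SE 0.41, adjusted p = 0.629 by limma). With the same values left out, it was -0.82 and passed (adjusted p = 0.0286 by limma). In HIV_Sal the sign was the other one, at 0.53 (SE 0.43, adjusted p = 0.458 by limma). Axin1, a scaffold of the complex that marks beta-catenin for degradation, had medians of 4.03 and 4.78 FPKM and a difference of -0.10 (SE 0.17). In HIV_Sal its difference was -0.65 (SE 0.75), with 3 of 12 STR rats listed at 0, while its medians of 4.449 FPKM in the STR and 3.05 in the PFC lay in the other order. Rap1b, a small GTPase of the Ras family that acts in cell adhesion, had medians of 23.98 and 20.8 FPKM and a difference of 0.31 (SE 0.32). It had no value in 1 PFC rat, which the fit left out. The difference was 0.93 with missing cells as 0, 0.83 with relative depth as a covariate, and 0.09 without PFC rat 12. In HIV_Sal it was -0.59 (SE 0.29), from the 9 STR and 11 PFC rats with a value.

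The comparison was repeated in HIV_Sal, in other animals but with the same gap in depth. The ratio of coverage to FPKM was 2.28 ± 0.23 in the STR and 2.78 ± 0.42 in the PFC (SD, n = 12 each, two-sided permutation test with 100000 resamples, p = 0.0007). The depth gap therefore cannot be told apart from region in the repeat either. In HIV_Sal, 1618 of 14345 transcripts (11.3%) were higher in the STR and 1026 (7.15%) were higher in the PFC, which is 18.4% in both directions. Of the 2326 transcripts called in F344_Sal, 2279 were tested in HIV_Sal. The same call was made for 1521, which is 65.4% of the F344_Sal calls and 57.5% of the 2644 HIV_Sal calls, and the opposite call was made for 0. The sign was the same for 2221 of 2279 (97.5%), beside 67.0% of the 11164 transcripts that were not called in F344_Sal. The 58 transcripts with another sign comprised 30 that were higher in the STR and 28 that were higher in the PFC in F344_Sal.

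Both directions were found again. Of the STR-high transcripts, 898 of 1407 (63.8%) were called again, with a median log2 difference of 0.84 in F344_Sal and 0.72 in HIV_Sal among those tested. Of the PFC-high transcripts, 623 of 919 (67.8%) were called again, with medians of 0.91 and 0.80 toward the PFC. The F344_Sal values chose these transcripts and the HIV_Sal values did not. Without STR rat 10 and HIV_Sal STR rat 6, 1743 of the 2610 F344_Sal calls tested in HIV_Sal were called in the same direction. With all libraries these numbers were 1521 of 2279, so the calls to be found again rose along with those found again.

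**Figure D4:**
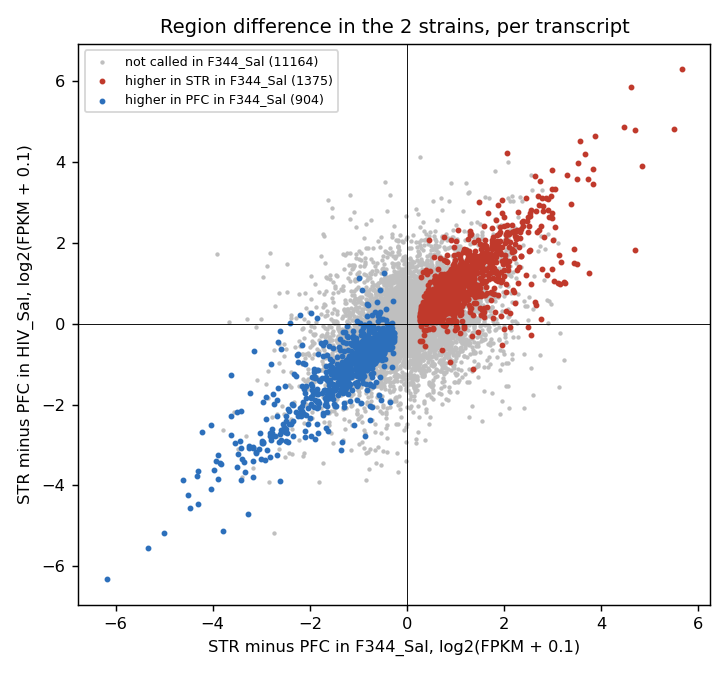
Each point is a transcript tested in both strains, with its STR minus PFC difference on the log2(FPKM + 0.1) scale in F344_Sal on the x axis and in HIV_Sal on the y axis. Of the 2279 colored points (called in F344_Sal), 2221 have the same sign in both strains.

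A test of whether the region difference itself differed between strains called 0 of 13443 transcripts (0%) by limma at an adjusted p under 0.05. At an unadjusted p under 0.05, 554 transcripts (4.12%) passed. The lowest adjusted p was 0.523. Without both STR libraries that were nearer to HIP, 0 transcripts passed, 579 (4.41%) had an unadjusted p under 0.05, and the lowest adjusted p was 0.348.

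Isoforms of 1 gene were compared where possible. At least 2 transcripts were tested for 769 of 13639 genes, and 1 or more was called for 147 of them. Over all transcripts tested, 16.1% were called, and each of these genes had 2 or more chances of a call. At least 2 transcripts were called in the same direction for 23 genes, and in opposite directions for 8 genes. In the pair with the largest gap, a transcript of 3925 bases rose from 9.32 FPKM in the PFC to 23.44 in the STR, whereas another of 7559 bases fell from 32.3 to 22.5. The fitted log2 differences were 4.08 (SE 1.10) and -0.52 (SE 0.10), the first of them larger than the ratio of the means. The first thus made up 22.4% of the 2 transcripts in the PFC and 51.0% in the STR. In the pair whose STR-high transcript had the smallest adjusted p of the 8, a transcript of 1067 bases was at 26.7 FPKM in the PFC and 54.1 in the STR (log2 difference 1.01, SE 0.12), and another of 1157 bases was at 80.3 and 56.0 (-0.55, SE 0.11). In HIV_Sal rats the differences of this pair were 0.72 and 0.28. In HIV_Sal, the STR-high transcript was not tested for 2 of the 8 genes, the pair with the largest gap among them. Of the other 6 genes, both signs were the same for 5 and both calls were made again for 1. Cufflinks divides reads that fit several isoforms between them, and in several pairs the lengths were nearly the same, so these values are uncertain. The number of such genes also moved with the processing, from 1 to 36, and these 8 genes were described after their values were seen.

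**Figure D5:**
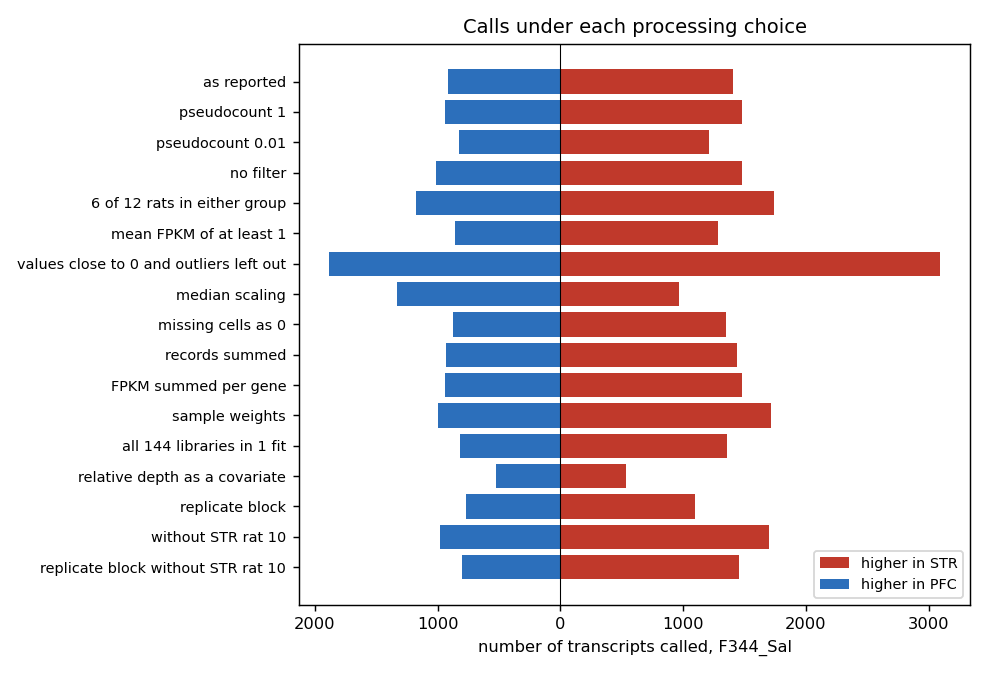
Bars give the number of transcripts called higher in the STR (red, to the right) and higher in the PFC (blue, to the left) in F344_Sal under each processing choice on the y axis. The STR side is longer in all rows except median scaling, where 968 and 1328 transcripts were called.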

How the data were processed

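The authors mapped reads from both fragment ends to Rn4 using TopHat and Bowtie and used Cufflinks to quantify transcripts; per the labels, Bowtie was version 1.04. The deposited tables, 1 for each strain and region, pack FPKM, its interval, coverage, and length of each transcript and rat into 1 cell.

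Rows that matched the annotation exactly were joined by gene and transcript identifier, several records in a cell were averaged, and missing cells were left out. Testing required FPKM above 0.01 in 6 or more rats of each group. log2(FPKM + 0.1) was fitted with limma 3.58.1 in R 4.3.3 with a trended prior, on the 24 libraries of a comparison or, for the test between strains, on 48. A call required a Benjamini-Hochberg adjusted p under 0.05 and a fold over 1.2. The fit was tested on simulated data. All fold changes are on the log2(FPKM + 0.1) scale which understates the change of transcripts low in all rats and can exceed the ratio of means where some rats are listed at 0.

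The members, lists, and rules were chosen with earlier results of these data known. The linking of 7 genes to transcripts, by 8 numbers equal within 0.0051 under 4 limits for outliers, was designed after the data were examined and linked 8 of 24 printed entries, 0 of them in a table of another region. The 14 other settings chosen at the start, and 2 added after the data were examined, are summarized in the closing section. Read numbers are not in the tables, so no intervals from counts could be computed, and the interval of Cufflinks is the only error of a single value. The labels do not say that a number marks the same rat in both regions.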

Additional observations from a re-analysis of the deposited data

How the results depend on the processing

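Both main counts in F344_Sal, 1407 transcripts higher in the STR and 919 higher in the PFC, stayed within 1.5 times under every alternative except 2. With values close to 0 and outliers left out, 3093 and 1883 transcripts were called in F344_Sal, 3103 and 2000 in HIV_Sal, 3241 in the same direction in both, and 4 region differences differed between strains. With relative depth as a covariate, 536 and 525 were called in F344_Sal, 1133 and 735 in HIV_Sal, and 735 in the same direction in both strains. With all 144 libraries in 1 fit, 2 region differences differed between strains. The causes were not tested. The counts were 1482 and 938 with a pseudocount of 1, 1353 and 874 with missing cells as 0, 1443 and 932 with records summed, and 1716 and 999 with sample weights. With values close to 0 left out, ENSRNOT00000046059 was not tested, nor was it when 1 of the 6 PFC rats above 0 was left out. Plch1 was not tested at a mean FPKM of at least 1. Leaving out each of the 24 libraries in turn gave 1277 to 1697 STR-high and 857 to 982 PFC-high calls. The 8 genes with isoforms called in opposite directions became 5 with a pseudocount of 0.01, 26 with no filter, 36 with the filter in either group, 28 with a mean FPKM of at least 1, 21 with values close to 0 and outliers left out, 3 with all libraries in 1 fit, and 1 with relative depth as a covariate, and 3 to 9 when 1 library was left out. Under median scaling HIV_Sal had 1142 STR-high and 1406 PFC-high calls. Mdh1 turned to -0.30 with values close to 0 and outliers left out, and Axin1 turned to 0.22 with FPKM summed per gene.

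The labels share replicate numbers between regions, but deviations of libraries with the same number from their group means had correlations from -0.04 to 0.05 in F344_Sal and from -0.03 to 0.02 in HIV_Sal, none of the 12 over 0.1 in either, and 2 and 3 of 12 libraries correlated best with their own number. With the number as a replicate block, 1094 and 771 transcripts were called in F344_Sal, 1378 and 884 in HIV_Sal, and 3 genes had isoforms called in opposite directions (4 with the block and without both STR libraries nearer to HIP). Coverage is given for each value, but the number of reads behind it is not. The interval of Cufflinks was widest for transcripts below 1 FPKM.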
